A study of Mus musculus with 6 samples.

Results

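The vesicle coat and sorting families are the proteins that move cargo out of the endoplasmic reticulum (ER), through the Golgi and around the endosomes. They were taken here as every single-symbol entry of the deposited table whose name begins as the Sec, Cop, Tmed, adaptor protein (Ap1 to Ap4), Arf, Vps, Snx or Trappc families do, which gave 110 of 8078 entries. The cells were horizontal basal cells, the reserve stem cells of the mouse olfactory epithelium, sorted by fluorescence from 12-week-old B6 animals. All carried KRT5-CreER together with the reporter Ai9 fl(Stop)TdTomato. In these mice a tamoxifen-inducible Cre driven by the keratin 5 promoter switches on the red fluorescent protein TdTomato. Animals of both groups had received tamoxifen 2 weeks before the sort. There were 3 uninjured libraries and 3 injured ones. The injured animals had breathed 180 ppm methyl bromide, a gas that strips the olfactory epithelium, for 8 h, and their tissue was harvested 18 h later. Each library pooled cells of several animals, and their sex is not stated.

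Cargo leaves the ER in vesicles coated by COPII, an inner Sec23 and Sec24 layer that picks cargo and an outer Sec13 and Sec31 cage. COPI, which is recruited by the small GTPase Arf1, returns escaped proteins from the Golgi, and the p24 proteins encoded by the Tmed genes serve both coats as cargo receptors. At the trans-Golgi, plasma membrane and endosomes, clathrin adaptor complexes select cargo, retromer and sorting nexins recycle receptors, and ESCRT complexes send them to lysosomes. Horizontal basal cells lie on the basement membrane and divide to rebuild the epithelium after such a loss.

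Levels are given in FPKM, fragment counts scaled by transcript length and library size, the unit the table is taken to hold. The read depth behind them is unknown. Group values are means ± SD over n = 3 libraries. Each change is the injured minus the uninjured mean of log2(FPKM + 1), so that low genes change less on it than in FPKM. Of the 110 members, 109 had a mean of at least 1 FPKM and were tested with limma among 7987 entries. The exception was the sorting nexin Snx22, listed at 1.16 FPKM in uninjured replicate 1, at 3.25 in injured replicate 2 and at the table's lowest value of 0.001 in the other 4 libraries.

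The comparison of injured with uninjured cells asks how far this trafficking machinery differs 18 h after the lesion. No member passed limma's adjusted p of 0.05 in either direction, against a background of 0% of entries higher and 0.0125% lower. With no adjustment of p, 6 members were below 0.05 as higher and 0 as lower, where 7.15% and 4.04% of all entries were. The 6, which are 5.5% of the members, were Ap3m1, Vps36, Copa, Trappc1, Ap1s1 and Sec11a. All 3 injured libraries lay above all 3 uninjured ones for 12 members, or 11% of them, against 12% of all entries. They lay below for 1 member, or 0.917%, against 6.75%. The count of higher members was thus close to that of the table as a whole. Large changes were also few: 3 members, or 2.75%, had a change beyond 1 on the log2 scale in either direction, against 8.61% of all entries.

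The median change of the members was 0.19, and that of all entries tested was 0.16. A positive change was found for 79 of 109 members, or 72.5%, against 62.9% of all entries. After upper-quartile scaling the split was 59 of 109, or 54.1%, against 48.8%, and the medians were 0.019 and -0.011. With quantile normalization it was 54.1% against 50.9%, and with Mir703 left out and the libraries rescaled 61 of 109, or 56%, against 51.4%. Under upper-quartile scaling the medians of the COPII genes, HOPS and CORVET, GARP, sorting nexins, TRAPP and the Sec14-like genes turned negative, between -0.13 and -0.023. Directions below are therefore to be read against the median change of 0.16 over all entries tested. The members as a sum made up 0.865%, 0.838% and 0.880% of each uninjured library's FPKM and 1.21%, 1.12% and 0.972% of that of injured replicates 1 to 3. A single entry, Mir703, accounted for 22.0% to 25.4% of each uninjured and 8.01% to 18.6% of each injured sum. With that entry left out the members' share was 1.07% to 1.18% in uninjured and 1.19% to 1.31% in injured libraries. Neither basis gave an overlap between groups, by a narrow margin without Mir703. The members' plain summed FPKM did overlap, at 1631, 1744 and 1898 in uninjured and 2462, 1839 and 2253 in injured libraries. Summed over each role group, FPKM separated in 3 of 14 groups. The COPI genes summed to 214, 241 and 260 in uninjured and 347, 279 and 284 in injured libraries, the clathrin adaptors to 161, 172 and 172 against 238, 194 and 238, and the ESCRT genes to 90.7, 95.8 and 103 against 162, 109 and 119.5. As a share of the sum without Mir703 the clathrin adaptors alone stayed separated, at 0.115%, 0.106% and 0.107% against 0.127%, 0.133% and 0.126%. That separation rests on 1 gene in 1 library. Ap3m1 gave 36.4 FPKM of the 238 in injured replicate 3, against 4.88 to 5.85 in uninjured libraries. Without Ap3m1 the share in injured replicate 3 would fall within the uninjured range.

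**Figure D1:**
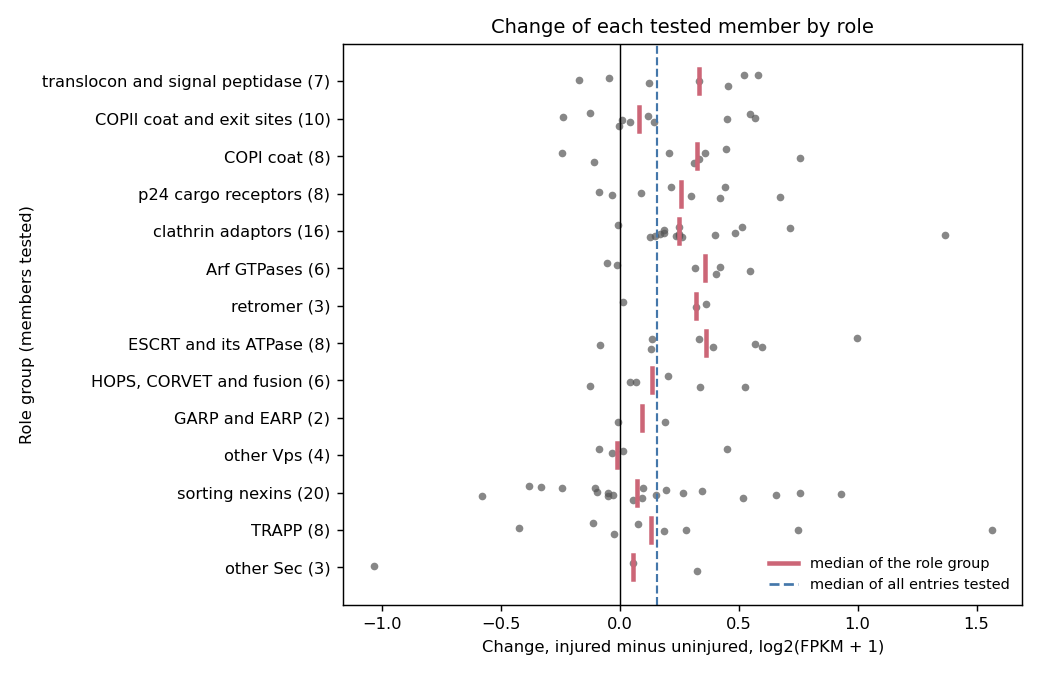
Change of each of the 109 tested members (points, injured minus uninjured, log2(FPKM + 1)) by role group, with the number tested in brackets, the group median (red bar) and the median of all entries tested (dashed line at 0.16). The group medians lie between -0.01 and 0.36, and single members spread from -1.03 to 1.56.

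The injured libraries were not alike. Summed FPKM over the whole table ran from 164265 in injured replicate 2 to 231755 in injured replicate 3. Among the tested members, 56 lay above every uninjured library in injured replicate 1 and 56 in injured replicate 3, which is 51.4% in each case, against 42.8% and 44.7% of all entries. In injured replicate 2 this held for 24 members, or 22%, against 33.9%. The pattern of injured replicates 1 and 3 above all uninjured libraries and replicate 2 not above them was shown by 29 members, or 26.6%, against 17.4% of all entries. In replicate 1 alone 13 members lay above, or 11.9%, against 9.05% of all entries, in replicate 2 alone 6, or 5.5%, against 12.6%, and in replicate 3 alone 11, or 10.1%, against 10.2%. Members below every uninjured library numbered 17, 29 and 10 in injured replicates 1 to 3, or 15.6%, 26.6% and 9.17%, against 28%, 30.6% and 23.8%. Both replicate 1 and replicate 3 lay above for 41 members, or 37.6%, against 29.4%. The 29 members that followed replicates 1 and 3 only included 5 of 8 COPI subunits, 4 of 8 p24 genes, 4 of 10 COPII genes and 3 of 6 Arf genes. Of the 11 neuronal genes listed, 9 had an entry, and 5 of these were above every uninjured library in injured replicate 2. Gap43, Ncam1, Gng8 and Rtp1 stood there at 113, 84.4, 43.3 and 32.8 FPKM and at no more than 14.6 in any other library. Cnga2 at 15.14 was just above. Stoml3, Adcy3 and Ano2 were below every uninjured library there, at 168, 8.003 and 4.25, and Gng13 at 129 was within the uninjured range. The part of such RNA in the members' values was not tested.

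The markers of horizontal basal cells were present in both groups. Of 10 listed, 6 had an entry of their own, and their summed level was 323 to 348 FPKM in uninjured and 195 to 385 in injured libraries. Trp63, which holds these cells dormant, was at 179 ± 19.9 and 117 ± 20.9. The 6 markers did not move as one: 3 changes were positive and 3 negative, with a median of 0.15. They ran from -0.62 for Col17a1 to 0.79 for Itga6. Markers of other cells were present too: the 8 sustentacular genes summed to 1515 to 1739 FPKM in uninjured and 663 to 1451 in injured libraries, and the 9 neuronal genes to 447 to 767 and 135 to 598. The 3 genes of Bowman's gland summed to 3208 to 5151 and 1308 to 2873, the 3 fibroblast genes to 126 to 220 and 32.8 to 101, the 3 immune genes to 75.4 to 184 and 51.4 to 99.8, and the 5 ciliated cell genes to 37.5 to 89.6 and 30.6 to 48.9. The first 3 of these sums rest largely on Plunc, Dcn and Cd74. Most other genes of those lists went the other way: the median change was 0.33 for the fibroblast and 0.57 for the immune genes, with 2 of 3 positive in each. Krt18, on the gland list, had a change of 0.93, and of 1.59 without injured replicate 2 (limma adjusted p = 0.0346). The 4 globose basal cell genes summed to 8.33 to 9.04 and 11.5 to 26.3. None of these genes stood at the lowest value in all libraries of a group, and the part of such cells in the results was not tested. In sorted bulk RNA fewer cells of a type and less RNA per cell cannot be told apart. The X-inactivating RNA Xist was the one entry that passed, at 29.4 ± 3.82 FPKM without injury and 0.324 ± 0.249 with it. The Y-linked Eif2s3y was at 18.8, 2.73 and 2.55 FPKM against 23.0, 29.3 and 21.1, and Ddx3y at 6.67, 1.21 and 1.55 against 7.74, 8.90 and 11.6, so that uninjured replicate 1 held Y-linked RNA near the injured level as well as Xist. The sex makeup of the pools and injury cannot be told apart.

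**Figure D2:**
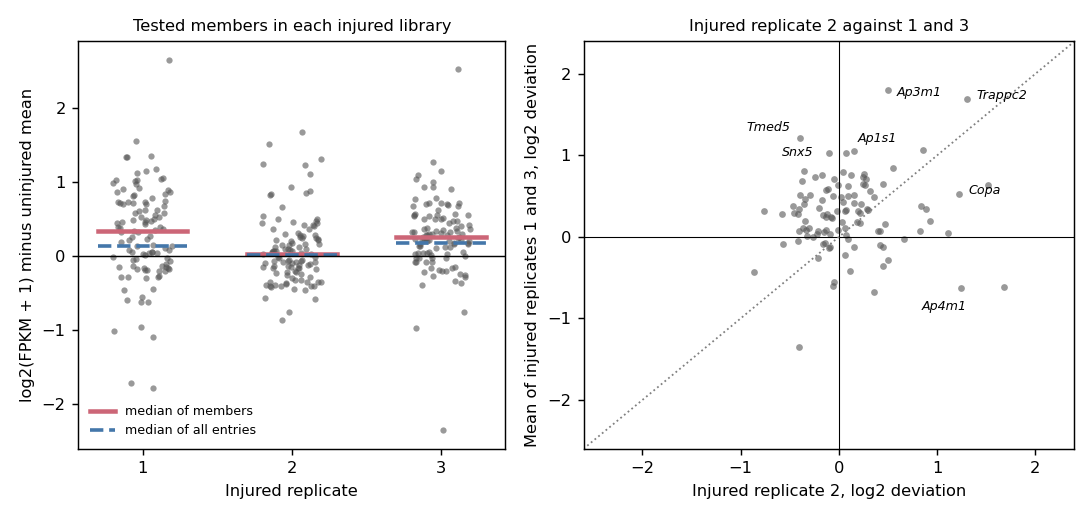
Left, deviation of each tested member in each injured library from the uninjured mean on the log2(FPKM + 1) scale, with the median of members (red, 0.34, 0.03 and 0.26 in injured replicates 1 to 3) and of all entries (dashed blue). Right, injured replicate 2 against the mean of injured replicates 1 and 3, where Tmed5 and Snx5 are high in replicates 1 and 3 but not in replicate 2; the dotted line marks equality.

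At the ER membrane, the Sec61 channel passes nascent proteins into the lumen and the Sec11 subunits of signal peptidase cut off their leader. The 7 members of this group had a median change of 0.33, with 5 positive and none past the threshold. Sec11a, a catalytic subunit, was at 23.7, 29.6 and 33.5 FPKM in uninjured replicates 1 to 3 and at 46.5, 39.4 and 44.6 in the injured ones. Every injured library lay above every uninjured one, and the change was 0.58 with an SE of 0.26 (limma adjusted p = 0.445). Its paralogue Sec11c showed no such order, with 13.4, 25.0 and 21.8 FPKM against 35.7, 11.03 and 16.6. The beta subunit of the channel, Sec61b, was at 16.4, 24.8 and 22.3 FPKM and at 27.6, 39.5 and 25.9, again without overlap (change 0.52, SE 0.28, and 0.34 without injured replicate 2). The pore subunit Sec61a1 was at 17.0, 23.6 and 18.5 against 36.3, 18.8 and 29.1, so that injured replicate 2 fell within the uninjured range. Sec61a2 was at 8.44 ± 2.21 and 9.18 ± 1.73 FPKM. Of the 2 channel partners that help post-translational import, Sec63 was at 17.4 ± 1.14 and at 36.7, 13.2 and 22.2, and Sec62 at 25.8 ± 3.32 and 22.8 ± 3.55.

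The COPII genes were the group of early secretion with the smallest median change, 0.08 over 10 members, of which 7 were positive. The cage subunit Sec31a, the most abundant, was at 26.01, 23.6 and 25.8 FPKM in uninjured and 29.6, 22.9 and 30.3 in injured libraries. The other cage subunit, Sec13, which also belongs to the nuclear pore, was at 10.3, 13.3 and 13.97 against 26.7, 13.6 and 17.7 (change 0.55, SE 0.30). In both, injured replicates 1 and 3 were above every uninjured library, with replicate 2 below them all for Sec31a and within their range for Sec13. The SNARE Sec22b, which acts in fusion between ER and Golgi, was at 21.1 ± 1.97 and 19.3 ± 2.45, and its relative Sec22a at 2.44 ± 2.01 and 2.41 ± 1.51. Sec23ip, a Sec23-binding protein of ER exit sites, was the one COPII gene without overlap, at 6.61, 5.63 and 4.16 FPKM against 9.57, 6.75 and 9.41. Its change was 0.57 with an SE of 0.28 (limma adjusted p = 0.486).

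The inner coat is made of paralogues that can stand in for one another in part. Sec23a was at 11.4, 6.17 and 8.13 FPKM without injury and at 3.77, 9.12 and 9.23 with it, and Sec23b at 10.7, 9.17 and 12.8 against 19.8, 9.46 and 18.3. As a share of the pair, Sec23b was 48.4%, 59.8% and 61.2% and then 84.0%, 50.9% and 66.5%. The groups overlapped, with injured replicate 2 inside the uninjured range. The cargo-binding Sec24 paralogues with a single-symbol entry, Sec24a, Sec24b and Sec24d, kept similar proportions. Sec24b was 49.6% ± 4.62 of their sum in uninjured and 52.1% ± 5.10 in injured libraries. In FPKM Sec24a was at 7.94 ± 1.23 and 8.31 ± 3.34, Sec24b at 14.6 ± 1.35 and 16.4 ± 2.69, and Sec24d at 7.10 ± 1.69 and 7.27 ± 2.54.

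COPI subunits had a median change of 0.32 over 8 members, with 6 positive. The alpha subunit Copa was at 32.8, 34.4 and 41.1 FPKM in uninjured replicates 1 to 3 and at 60.2, 85.4 and 45.2 in injured ones. No libraries overlapped, and unlike most members of the coat its highest value was in injured replicate 2. The change was 0.76 with an SE of 0.30 (limma adjusted p = 0.397). The beta-prime subunit Copb2 was at 46.5, 40.0 and 51.9 FPKM against 85.8, 42.4 and 56.3. The beta subunit Copb1 was at 23.6, 21.9 and 23.6 against 31.3, 23.4 and 34.1, and the epsilon subunit Cope at 25.0, 38.0 and 40.2 against 55.5, 36.1 and 49.3. In each of these 3, injured replicates 1 and 3 were above every uninjured library and replicate 2 was not.

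The gamma and zeta subunits of COPI each have a pair of paralogues. Copg2 was the one member whose injured libraries all lay lower, at 22.6, 17.5 and 18.7 FPKM in uninjured and 17.1, 16.7 and 15.3 in injured cells (change -0.24, SE 0.24, limma adjusted p = 0.716). Without uninjured replicate 1 the change was -0.14. Copg, now called Copg1, was at 14.01, 15.9 and 17.9 against 25.0, 15.1 and 20.9. Copg thus made up 38.3%, 47.6% and 48.9% of the gamma pair without injury and 59.5%, 47.6% and 57.8% with it, with replicate 2 again inside the uninjured range. For the zeta pair the share of Copz1 was 45.2%, 46.1% and 47.2% and then 51.9%, 47.3% and 56.1%, which did not overlap by a narrow margin. In FPKM Copz1 was at 29.3 ± 6.002 and 33.7 ± 4.69 and Copz2 at 34.1 ± 6.23 and 31.3 ± 3.55.

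**Figure D3:**
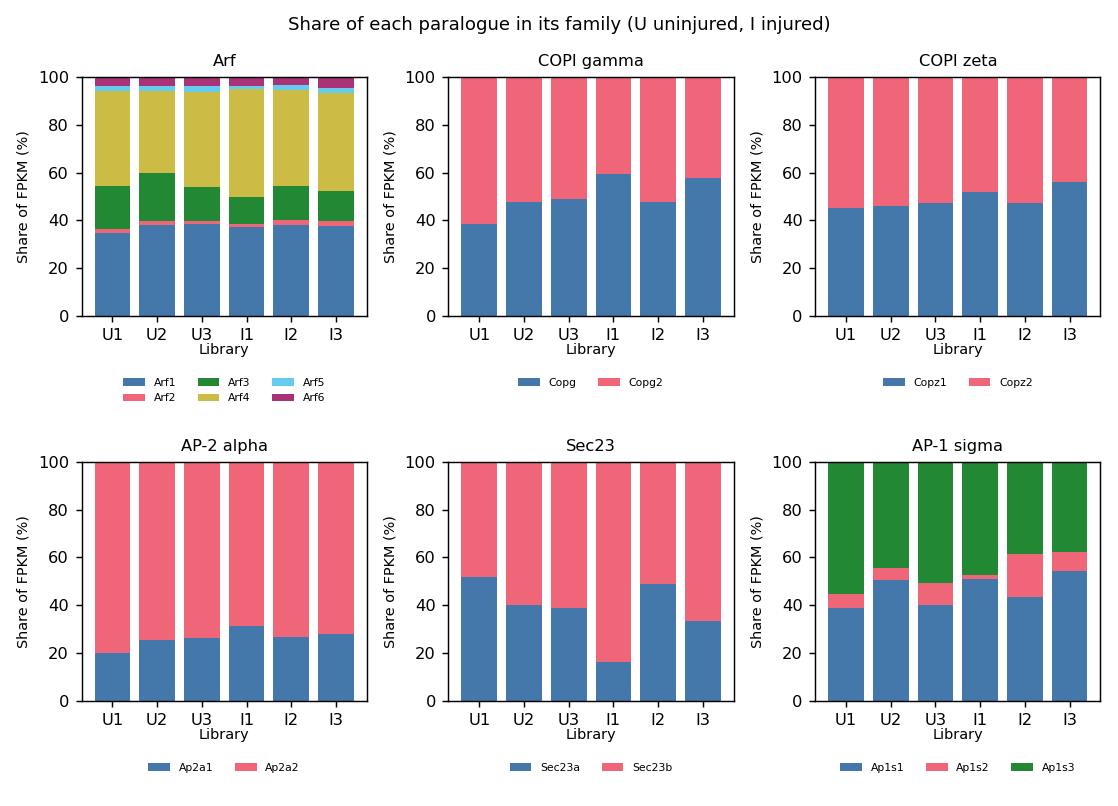
Share of each paralogue in the summed FPKM of its family (percent) in uninjured (U1 to U3) and injured (I1 to I3) libraries. Copz1 and Arf4 take a larger share in all injured libraries than in any uninjured one, and Sec23b ranges from 48.4% to 84.0%.

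The p24 genes had a median change of 0.26 over 8 members, 6 of them positive and none with separated libraries. Tmed2, a widely expressed member, was at 28.9, 25.97 and 26.7 FPKM in uninjured and 41.9, 21.1 and 55.6 in injured libraries. Its partner Tmed10 was at 18.8, 19.3 and 20.5 against 27.2, 14.4 and 22.9. Tmed5 was at 11.9, 9.21 and 7.79 against 22.2, 6.99 and 24.3. In all 3 genes injured replicate 2 was below every uninjured library and the other 2 injured libraries were above. For Tmed5 the change was 0.68 (SE 0.43, limma adjusted p = 0.574), and without injured replicate 2 it was 1.21 (limma adjusted p = 0.0412). It was 0.44 without injured replicate 1 and 0.38 without injured replicate 3. Tmed3 had the same order, at 11.9 ± 1.74 FPKM and at 20.7, 8.77 and 14.7. The remaining members were Tmed9 at 14.3 ± 5.53 and 17.4 ± 4.98, Tmed7 at 20.6 ± 1.65 and 19.5 ± 4.34, Tmed1 at 10.6 ± 2.07 and 10.5 ± 2.99, and Tmed8 at 2.51 ± 1.198 and 3.72 ± 1.56.

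Arf GTPases recruit COPI and the clathrin adaptors to membranes. Arf4 and Arf1 were the most abundant members of all, at 103, 95.7 and 119 and at 89.1, 105 and 115 FPKM without injury. In injured replicates 1 to 3 Arf4 was at 187, 108 and 181 and Arf1 at 154, 102 and 165. Replicate 2 stayed within the uninjured range for both, and the changes were 0.55 (SE 0.33, limma adjusted p = 0.553) and 0.42 (SE 0.32, limma adjusted p = 0.627). Arf6, which acts at the plasma membrane, had a narrow uninjured range of 10.01 to 10.7 FPKM and was at 15.4, 8.63 and 20.9 after injury. Arf3 was at 48.1 ± 6.81 and 46.6 ± 8.88, Arf5 at 6.15 ± 1.40 and 6.07 ± 1.16, and Arf2 at 4.67 ± 0.614 and 6.18 ± 1.76. Within the family the share of Arf4 was 39.9%, 34.4% and 39.7% and then 45.3%, 40.5% and 41.4%, and that of Arf3 was 17.7%, 20.1% and 14.3% and then 11.2%, 14.1% and 12.7%. Neither share overlapped between groups, while the share of Arf1 was 36.9% ± 2.06 and 37.7% ± 0.295.

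Clathrin adaptors are 4-subunit complexes that link cargo to clathrin at the Golgi (AP-1), the plasma membrane (AP-2) and endosomes (AP-3). The group as counted and summed here also holds subunits of AP-4 and the AP-1 regulator Ap1ar. Of 16 members, 15 had a positive change, 13 after upper-quartile scaling, and the median was 0.25. Ap3m1, the medium subunit of AP-3, was at 5.85, 4.88 and 5.68 FPKM in uninjured and 12.5, 8.14 and 36.4 in injured libraries. All 3 injured libraries were higher and replicate 3 far above the other 2, with a change of 1.37 (SE 0.47, limma adjusted p = 0.365). Without injured replicate 3 the change was 0.78 (limma adjusted p = 0.494). Vcl, which encodes vinculin and whose exons overlap those of Ap3m1 on the opposite strand, stood at 128 FPKM in that same library and at 9.81 to 20.6 in the other 5. The other AP-3 subunits did not follow, with Ap3b1 at 16.9 ± 4.03 and 19.1 ± 1.90 and Ap3s1 at 3.39 ± 1.51 and 4.49 ± 2.58.

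Among AP-1 subunits, the small chain Ap1s1 was at 9.55, 10.8 and 11.3 FPKM against 22.4, 11.1 and 22.7, a change of 0.71 (SE 0.31, limma adjusted p = 0.425). Without injured replicate 2 its change was 1.03 (limma adjusted p = 0.0399). Ap1s3 was at 12.5 ± 2.58 and 15.4 ± 5.40, and Ap1s2 at 1.503, 1.05 and 2.63 against 0.722, 4.72 and 3.37. The epithelial medium chain Ap1m2 was at 8.28 ± 0.928 and 9.58 ± 1.43, the large chain Ap1b1 at 4.67 ± 0.620 and 5.82 ± 1.60, and Ap1ar, a regulator that binds AP-1, at 32.7 ± 5.43 and 35.6 ± 2.22. No subunit of AP-1 had separated libraries.

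The beta chain of AP-2, Ap2b1, was at 22.0, 16.1 and 19.3 FPKM in uninjured and 26.5, 23.9 and 31.0 in injured libraries, without overlap (change 0.48, SE 0.26, limma adjusted p = 0.502). Of the alpha chains, Ap2a1 was at 4.05 ± 0.779 and 6.25 ± 1.34 and Ap2a2 at 13.04 ± 2.14 and 15.6 ± 3.41. The share of Ap2a1 in the pair was 19.9%, 25.4% and 26.1% and then 31.2%, 26.6% and 28.0%, a small gap between the groups. Ap2s1 was at 14.9 ± 2.44 and 18.7 ± 7.93, and Ap2m1 ranged from 5.41 to 21.5 FPKM without injury and from 8.19 to 21.0 with it. The AP-4 subunits gave no stable level: Ap4m1 was at 2.41 to 2.48 FPKM without injury and at 0.001, 7.17 and 3.95 with it, and Ap4s1 was listed at 0.001 in uninjured replicate 2 and injured replicate 3 and at 9.58 to 15.5 elsewhere.

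ESCRT complexes sort ubiquitylated receptors into the interior of endosomes. This group held the member with the lowest unadjusted p, and its median change of 0.36 over 8 members, with 7 positive, was the highest of the role groups beside that of the Arf genes, also 0.36. Vps36, a subunit of ESCRT-II that binds ubiquitin, was at 9.51, 13.4 and 10.2 FPKM in uninjured and 34.3, 20.6 and 16.8 in injured libraries. No libraries overlapped, and the change was 1.00 with an SE of 0.31 (limma adjusted p = 0.314). Vps25, its ESCRT-II partner, was at 27.1, 32.9 and 37.6 against 61.9, 36.1 and 30.6, high in injured replicate 1 alone. The annotation also places an exon of Ramp2 on the same strand over that of Vps25.

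ESCRT-I is represented by the Vps37 paralogues. Vps37c was at 6.72, 6.63 and 6.38 FPKM against 13.2, 7.97 and 10.1, and Vps37b at 1.17, 1.80 and 1.70 against 2.34, 2.04 and 4.63. Both had all injured libraries higher, with changes of 0.57 (SE 0.27) and 0.60 (SE 0.47), the latter 0.33 without injured replicate 3. Vps37a was at 11.6 ± 2.56 and 15.4 ± 2.34. The subunit of ESCRT-III listed as Vps24, now called Chmp3, was at 12.5 ± 1.09 and 11.8 ± 1.99. The ATPases that take the complex apart, Vps4a and Vps4b, were at 9.24 ± 1.53 and 10.3 ± 2.26 and at 11.3 ± 2.67 and 12.4 ± 1.87.

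**Figure D4:**
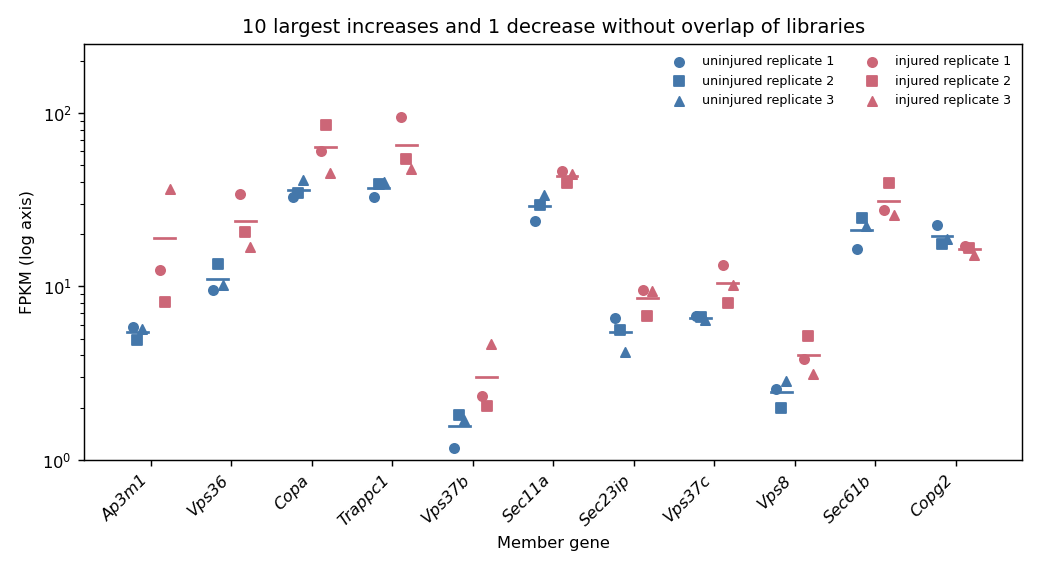
FPKM (log axis) in each library for the 10 members with the largest increases among those whose libraries did not overlap and for Copg2, the one member lower in all injured libraries. Points are libraries, with circles, squares and triangles for replicates 1 to 3, and bars are group means; Ap3m1 reaches 36.4 in injured replicate 3.

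Retromer retrieves receptors from endosomes to the Golgi. Of its 3 members, Vps35 was at 32.4, 20.7 and 22.9 FPKM against 35.4, 26.6 and 35.7, Vps26a at 35.0 ± 5.53 and 35.5 ± 8.25, and Vps29 at 20.1 ± 5.19 and at 28.4, 24.3 and 22.3. The groups overlapped for each.

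HOPS and CORVET tether endosomes and lysosomes before fusion, and GARP and EARP tether vesicles that return to the Golgi and to recycling endosomes. The HOPS and CORVET genes had a median change of 0.14 over 6 members. Vps8, specific to CORVET, was low but separated, at 2.56, 1.99 and 2.84 FPKM against 3.83, 5.15 and 3.13 (change 0.53, SE 0.37). Vps33a was at 3.98 ± 0.434 and at 11.6, 3.54 and 3.35, so that its mean rests on injured replicate 1. Vps41 was at 14.4 ± 1.99 and 14.8 ± 0.670, Vps16 at 4.38, 4.04 and 11.7 against 5.27, 10.1 and 6.53, Vps39 at 5.66 ± 0.565 and 6.12 ± 1.83, and Vps11 at 6.25 ± 0.636 and 5.74 ± 1.46. Of the tethers shared by GARP and EARP, Vps53 was at 12.9 ± 3.998 and 14.5 ± 2.52 and Vps52 at 7.25 ± 3.55 and 6.77 ± 0.378. The lipid transfer proteins Vps13a, Vps13b and Vps13c were at 8.402 ± 4.47 and 11.5 ± 4.68, at 8.99 ± 1.80 and 8.74 ± 1.49, and at 4.88 ± 0.660 and 4.76 ± 2.07. Vps72, which despite its name is a chromatin remodelling subunit, was at 18.8 ± 4.81 and 18.7 ± 3.25.

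Sorting nexins bind phosphoinositides on endosomes, and they form the largest group here. Of 20 tested, 11 had a positive and 9 a negative change, with a median of 0.07. After upper-quartile scaling 7 were positive. Snx3, the most abundant, which works with retromer, was at 39.5, 42.4 and 63.2 FPKM in uninjured and 71.7, 55.5 and 55.5 in injured libraries. Snx5, which pairs with Snx1 or Snx2 in recycling tubules, was at 29.1, 25.7 and 27.0 against 54.5, 25.3 and 59.3. Its change was 0.66 (SE 0.34, limma adjusted p = 0.495). Without injured replicate 2 it was 1.03 (limma adjusted p = 0.0413), without replicate 1 it was 0.50 and without replicate 3 it was 0.44. Its close relative Snx6 was at 15.7, 16.9 and 25.1 against 24.02, 22.0 and 22.6. Snx1 and Snx2 were at 19.3 ± 5.39 and 17.6 ± 2.47 and at 19.5 ± 1.74 and 19.3 ± 5.74, so of this module Snx5 alone reached levels beyond 50 FPKM in any library.

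Snx15 was the one sorting nexin with separated libraries, at 4.04, 2.94 and 4.51 FPKM against 7.26, 4.76 and 5.75. Snx7 was at 2.84 ± 0.654 and at 7.63, 3.23 and 6.26. The lowest change of the group was that of Snx21, at 3.003 ± 1.18 and 1.65 ± 0.590 FPKM (change -0.58). Snx27, which couples cargo with a PDZ motif to retromer, was at 8.79 ± 1.43 and 8.58 ± 1.10, Snx17, which recycles integrins, at 10.4 ± 0.990 and 10.1 ± 1.49, and Snx9, an endocytic nexin, at 9.56 ± 1.19 and 10.7 ± 3.57. Snx12 was at 25.7 ± 2.71 and 30.9 ± 11.7. The other 8 tested nexins had uninjured means of 1.78 to 9.97 FPKM and changes between -0.38 and 0.93, and none passed.

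TRAPP complexes tether vesicles at the ER and Golgi and activate Rab GTPases. Trappc1, a core subunit, was at 32.6, 38.7 and 39.9 FPKM in uninjured and 95.4, 54.4 and 47.4 in injured libraries. The groups did not overlap, and the change was 0.75 with an SE of 0.32 (limma adjusted p = 0.418). Without injured replicate 1 it was 0.45. Another core subunit, Trappc3, varied widely in both groups, at 19.4, 38.3 and 56.7 against 30.7, 49.8 and 26.3. Trappc2 had the largest change of any member, 1.56 with an SE of 0.85, but was listed at 0.001 in uninjured replicate 1 and at 4.88 and 5.70 in the other 2, against 20.5, 7.43 and 4.62. Its change was 0.68 without uninjured replicate 1 and 1.02 without injured replicate 1. For the other 5 the groups overlapped: Trappc6b was at 36.5 ± 5.61 and 33.5 ± 1.83, Trappc6a at 10.5 ± 3.65 and 7.47 ± 2.05, Trappc8 at 11.2 ± 2.16 and 13.8 ± 2.03, Trappc2l at 8.42 ± 1.78 and 10.1 ± 4.05, and Trappc10 at 5.203 ± 1.93 and 5.45 ± 1.45.

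The Sec14-like genes share a name with the others but encode lipid-binding proteins. Sec14l1 was at 18.8, 22.6 and 20.9 FPKM against 24.1, 15.3 and 26.9. Sec14l5 had the lowest change of any member, -1.03 with an SE of 0.50 (limma adjusted p = 0.478), at 5.87, 2.38 and 4.06 against 0.488, 2.70 and 1.49. Sec14l2 was listed at 0.001 in uninjured replicate 2 and at 3.13 to 11.2 in the other 5 libraries.

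Sequence shared by members was looked for in RefSeq promoters of build GRCm38.p6, windows from 250 bases before to 50 after an annotated start, of which 104 belonged to 88 of the 110 members. The core of the unfolded protein response element, TGACGTGG, which the ER stress factors XBP1 and ATF6 recognise, was searched on both strands. It stood in 6 of 104 member promoters, 5.77%, against 0.676% of 32851 promoters, and these belonged to Arf1, Copb1, Copb2, Sec23a and Sec24d. The longer ER stress element was in 0 of 104 member promoters and in 0.119% of all. For each element searched, the 32851 promoters were not limited to genes with an entry here. They and the member promoters are therefore unlike sets, and the difference in share was not tested. A match describes letters and not a bound site. For Copb2 and Sec23a the match lay after the start. The other 3 are shown 5′ to 3′ on the gene's strand, with the element in capitals (for Copb1 it reads as its reverse complement), because they sit in genes of both coats and of the GTPase that recruits one of them.
Arf1 (minus strand, chr11:59228193-59228292): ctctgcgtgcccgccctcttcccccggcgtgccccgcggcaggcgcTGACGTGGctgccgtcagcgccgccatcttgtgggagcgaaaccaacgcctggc
Copb1 (minus strand, chr7:114254681-114254780): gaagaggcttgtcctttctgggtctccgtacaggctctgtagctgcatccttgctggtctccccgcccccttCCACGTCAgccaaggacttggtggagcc
Sec24d (plus strand, chr3:123267396-123267495): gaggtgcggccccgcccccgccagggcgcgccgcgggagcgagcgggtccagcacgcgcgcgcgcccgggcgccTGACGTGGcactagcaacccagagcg

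The 5 genes with this element did not move as one. The changes were 0.42 for Arf1, 0.36 for Copb2, 0.33 for Copb1, -0.0041 for Sec24d and -0.24 for Sec23a, and none passed. The element of lysosomal and autophagy genes known as CLEAR, a palindrome and the stretch in capitals below, stood in 4 member promoters, 3.85%, against 0.326% of all. They belonged to Vps16, Vps26a and Vps33a, and Vps26a held a copy before each of 2 annotated starts. Its inner letters CACGTG alone, which every CLEAR match holds too, stood in 13.5% of member promoters and 7.15% of all. The first 2 sequences below are from subunits of HOPS, which acts at the lysosome, and the others from retromer.
Vps16 (plus strand, chr2:130424220-130424319): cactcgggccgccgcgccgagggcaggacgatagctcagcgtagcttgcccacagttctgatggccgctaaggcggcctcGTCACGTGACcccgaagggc
Vps33a (minus strand, chr5:123573016-123573115): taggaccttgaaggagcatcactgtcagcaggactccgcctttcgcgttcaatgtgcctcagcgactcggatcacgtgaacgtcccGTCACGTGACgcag
Vps26a (minus strand, chr10:62486935-62487034): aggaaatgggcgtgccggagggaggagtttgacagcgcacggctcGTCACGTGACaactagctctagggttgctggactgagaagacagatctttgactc
Vps26a, second start (minus strand, chr10:62486697-62486796): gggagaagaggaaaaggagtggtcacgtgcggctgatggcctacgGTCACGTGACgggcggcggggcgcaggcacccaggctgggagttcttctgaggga

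The changes of these 3 genes were 0.20, 0.34 and 0.01 for Vps16, Vps33a and Vps26a, with none past the threshold. Their levels in single libraries are given with HOPS and retromer.

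Genes of the same routes outside these families were read from 7 lists. Over all of them 0 genes passed in either direction. Clathrin and its accessory proteins (9 tested) had a median of 0.25, with the light chain Clta at 64.2, 87.7 and 80.5 FPKM against 85.8, 69.6 and 68.8 and the assembly protein Picalm at 40.3, 33.5 and 56.1 against 72.4, 51.2 and 80.4. The list of Arf and Sar1 regulators, which also holds the COPI delta subunit Arcn1 (8 tested), had a median of 0.05. Arcn1 was at 23.6, 25.0 and 20.3 FPKM against 28.9, 23.0 and 41.0. Sar1b, the GTPase that starts COPII assembly, was at 43.4, 51.6 and 70.6 against 63.3, 55.7 and 54.0. Tfg, which organises ER exit sites, was at 64.2, 43.8 and 38.1 against 44.2, 44.2 and 54.1. In each of these genes the groups overlapped. Elsewhere on the clathrin list 3 genes had all injured libraries higher and 2 all lower, among them the dynamin Dnm2 (0.74) and the epsin Epn1 (-0.87), and on the regulator list 1 had all lower, Preb (-0.82). These 3 were named after their values were seen. Over all entries tested, 12% had all injured libraries higher and 6.75% all lower. On the lists that follow, the counts higher were 0 for cargo receptors, 2 for ESCRT partners and 2 for SNAREs and tethers. They were 1 for sorted receptors and 1 for the unfolded protein response, with 0 lower on each list.

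The 11 ER-Golgi cargo receptors tested all had a positive change, with a median of 0.28, and 11 of 11 endosomal ESCRT partners did so too, with a median of 0.36; after upper-quartile scaling 9 and 7 of them were positive. Ergic3 was at 44.1, 54.9 and 60.3 FPKM against 70.2, 70.0 and 47.8, and the KDEL receptor Kdelr2, which returns ER chaperones, at 30.6, 40.5 and 37.9 against 43.8, 25.6 and 43.9. Pdcd6ip, the ESCRT adaptor also called ALIX, was at 35.3, 33.2 and 32.9 against 46.8, 44.5 and 62.4, and Chmp5 at 28.4, 31.5 and 31.1 against 39.7, 21.6 and 33.2. Without injured replicate 2, where 3.52% of all entries passed as higher, 2 of the 11 cargo receptors passed, Surf4 with a change of 1.09 (limma adjusted p = 0.0424) and Ergic1 with 1.06 (limma adjusted p = 0.0498). The 2 were singled out after their values were seen.

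The 12 SNARE, tether and Rab genes of the ER-Golgi route had a median of 0.35, with Rab1 at 102, 225 and 113 FPKM against 136, 234 and 167 and Rab2a at 98.8, 113 and 76.8 against 97.9, 80.7 and 82.7. The 14 sorted receptors and endosomal Rabs had a median of 0.10. Among them Rab7 was at 63.7, 103 and 106 against 144, 90.2 and 119, and the mannose 6-phosphate receptor M6pr at 47.8, 39.7 and 43.3 against 67.9, 21.1 and 65.5. The 11 genes of the unfolded protein response had a median of 0.33 and of 0.69 without injured replicate 2. Of these, 9 were positive and 2 negative, and after upper-quartile scaling 7 were positive, with a median of 0.15. The negative ones were Herpud1 (-0.064) and Ddit3 (-1.46). Ddit3 was at 1.66, 7.51 and 7.26 FPKM against 0.001, 7.87 and 0.001. The chaperones Hsp90b1 and Hspa5 were at 180, 215 and 188 against 314, 206 and 311 and at 153, 151 and 201 against 268, 137 and 338 FPKM. As in Arf1, Arf4, Tmed2 and Tmed5, injured replicates 1 and 3 were above every uninjured library and replicate 2 was not. The same pattern was shown by 17.4% of all entries, so it is not particular to these genes.

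Leaving out injured replicate 2, which leaves 2 injured libraries, 3 members passed as higher, Ap1s1, Snx5 and Tmed5, and 0 as lower. That is 2.75% of the members, against 3.52% of all entries higher and 1.17% lower. The median change was then 0.29 for members and 0.18 for all entries, and 86 members, or 78.9%, were positive against 61.3% of all. With the replicate number as a block 1 member passed as higher, Ap3m1, where 1.68% of all entries did, and 0 as lower, where 1.09% did. With library weights 0 members passed, against 1.06% of all entries higher and 0.613% lower. Annotated exons of 29 members overlap those of a coding gene on the opposite strand, and the sources used here do not state whether the counting used strand. Among the members described above they include Ap3m1, Copa, Copg2, Snx5, Tmed5, Trappc2, Ap4m1 and Ap4s1, so their levels are uncertain to that extent.

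**Figure D5:**
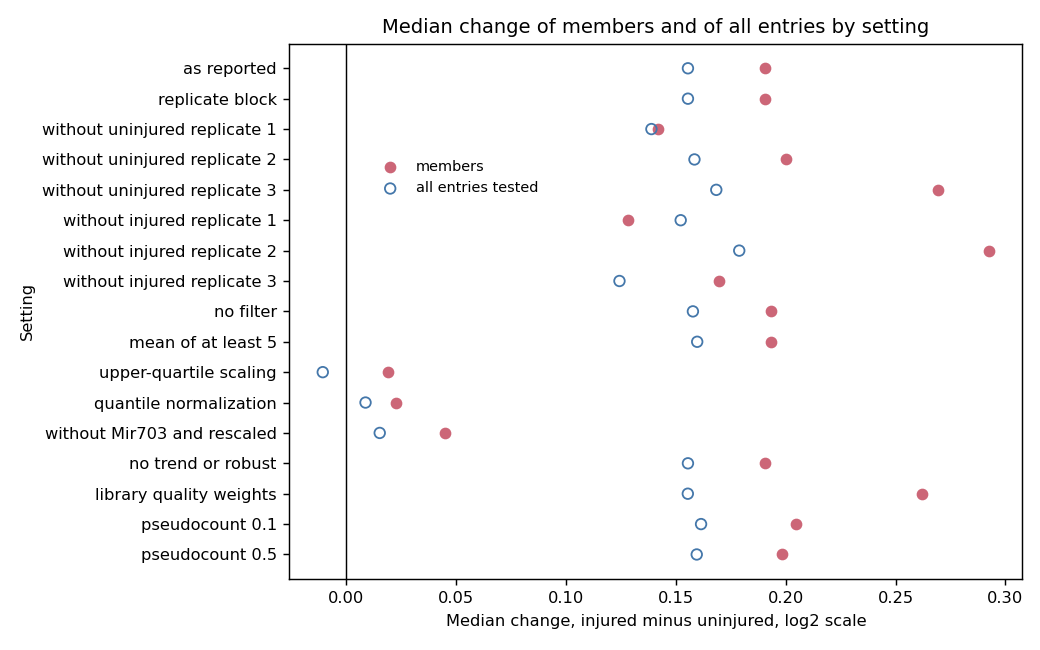
Median change (log2 scale) of the tested members (filled) and of all entries tested (open) under each setting. The members' median ran from 0.019 under upper-quartile scaling to 0.29 without injured replicate 2, and it lay below that of all entries when injured replicate 1 was left out.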

How the data were processed

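RNA from sorted cells was made into Nextera XT libraries, per the labels' protocols. The submitters' processing notes name FastQC, TopHat, Cuffdiff and the mm9 genome without version or role. The authors deposited 1 table of 8078 entries and 6 libraries, read here as FPKM, Cuffdiff's usual unit. For annotation, scaling and strand use the sources used here give nothing. The 131 entries that join several symbols were not read as members. Entries with a mean of at least 1 FPKM were tested by limma 3.58.1 (R 4.3.3). The values were log2(FPKM + 1), eBayes used a trend and robust option, and p was adjusted by Benjamini-Hochberg over 7987 entries, with 3 libraries against 3 and no covariate. The fit was tested on simulated data. Members, lists and tests were chosen with earlier results of these data known. Named were up to 10 members per direction without overlap, the 2 most abundant per role, the 6 of widest spread among injured libraries and the 2 most abundant per list; the other members complete each family. Same-numbered libraries did not deviate together (correlations -0.0892, 0.0677 and -0.0776). Differently numbered ones ran from -0.081 to 0.149. With 3 libraries a group these values cannot show whether the numbers pair the libraries. Exon overlaps came from GENCODE on GRCm38, used only for which genes overlap. Tried as alternatives were a block on replicate number, the omission of each library, and other filters, scalings, pseudocounts, variance models, library weights and a stricter threshold. Figures used matplotlib 3.10.9.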

Additional observations from a re-analysis of the deposited data

How the results depend on the processing

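No member passed in either direction under the alternatives run, except with the replicate block and without injured replicate 2. The block gave 1 higher (Ap3m1, limma adjusted p = 0.0107) and called 134 entries higher and 87 lower. Same-numbered libraries did not deviate together, and whether the numbers pair them is not known. Without injured replicate 2, 3 members passed as higher, so that leaving out 1 library gave 0 to 3. The members' median was 0.019 with upper-quartile scaling and 0.023 with quantile normalization. Members with all injured libraries higher numbered 6 with upper-quartile scaling (7.2% of all entries), 12 without Mir703 (8.72%) and 14 to 41 when 1 library was left out (15.9% to 29.4%). Members with all injured libraries lower numbered 6 with upper-quartile scaling (11.4% of all entries), 4 without Mir703 (10.3%) and 1 to 5 when 1 library was left out (8.44% to 14.5%). These last counts were added after seeing the data.

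Of 39 named members, 14 changed sign under some setting. With upper-quartile scaling, quantile normalization and Mir703 left out, in that order, values were -0.064, -0.051 and -0.037 for Sec31a, -0.093, -0.11 and -0.067 for Tmed10, -0.055, -0.049 and -0.028 for Ap1ar, -0.17, -0.17 and -0.15 for Vps26a, -0.13, -0.14 and -0.11 for Vps41, -0.17, -0.15 and -0.14 for Vps72, and -0.13, -0.13 and -0.10 for Sec14l1. Library weights gave -0.0035 for Vps53, 0.076 for Vps52 and -0.063 for Vps72, and a pseudocount of 0.1 gave 0.0041 for Vps52. Leaving out 1 library at a time, values ran from -0.096 to 0.34 for Tmed10, -0.17 to 0.12 for Vps26a, -0.048 to 0.14 for Vps41, -0.034 to 0.63 for Vps16, -0.21 to 0.33 for Vps52, -0.18 to 0.18 for Vps72, -0.43 to 0.32 for Trappc3, -0.10 to 0.29 for Sec14l1, -0.80 to 1.00 for Sec14l2, -1.03 to 1.40 for Ap4s1 and -0.63 to 0.88 for Ap4m1. The cause was not tested.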
